A study of Mus musculus with 12 samples.

Results

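The genes described here carry out the synthesis of prostaglandins, thromboxane and leukotrienes from arachidonic acid: Pla2g4a, Ptgs1, Ptgs2, Ptges, Hpgds, Tbxas1, Alox5, Alox5ap, Lta4h and Ltc4s. These 10 genes were chosen by name, with earlier results of these data known, so counts of them carry no test of their own. Of the 10 genes, 9 had a probe set assigned to that symbol alone, out of 19938 such genes on the array. Ptgs1, the constitutive cyclooxygenase, was not analysed here. Each of the 9 had 1 probe set of this kind.

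The study profiled RNA on Affymetrix Mouse Gene 1.0 arrays, 1 array a sample, from marrow of C57B/6 mice grown for 6 days in 20 ng/ml GM-CSF, a cytokine that drives myeloid growth. All 12 arrays share that culture, and the cells form 4 groups of 3 arrays: GM-DC, labelled dendritic, with LPS or unstimulated, and GM-MF, labelled macrophage, with LPS or unstimulated. LPS, a bacterial ligand of Toll-like receptor 4, was given at 10 ng/ml for 4 hours. The labels do not say how the dendritic cells and macrophages of a culture were separated, nor whether replicates were separate mice or cultures. The p-values therefore reflect the scatter among these arrays alone, and that scatter could be technical.

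Cytosolic phospholipase A2 frees arachidonic acid from membranes. Cyclooxygenases turn it into prostaglandin H2, which terminal synthases convert into prostaglandin E2 (Ptges), prostaglandin D2 (Hpgds) or thromboxane A2 (Tbxas1). In the other branch 5-lipoxygenase (Alox5), helped by its activating protein (Alox5ap), makes leukotriene A4, from which Lta4h makes the neutrophil attractant leukotriene B4 and Ltc4s makes the cysteinyl leukotriene C4. Macrophages are known as strong producers of both kinds of mediator, and prostaglandin E2 and cysteinyl leukotrienes are both known to affect dendritic cell maturation and migration.

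The promoters of 3 genes are shown because the results turn on them: Ptgs2, which was higher with LPS in both cell types, Ptges, which was higher with LPS in GM-MF and differed in its response between the cell types, and Ltc4s, the 1 gene of the set that was higher in GM-DC. Each sequence is the 250 bases before the transcript start that RefSeq gives on GRCm38.p6, read 5′ to 3′ on the gene's strand. The Ptgs2 window is chr1:150099781-150100030 on the + strand, the Ptges window chr2:30903298-30903547 on the - strand and the Ltc4s window chr11:50238533-50238782 on the - strand. The start used for Ptges lies inside the annotated span of that gene. Capitals mark matches, on either strand, to a C/EBP motif (TTNCNNAA) or a PU.1 core (GAGGAA).
Ptgs2: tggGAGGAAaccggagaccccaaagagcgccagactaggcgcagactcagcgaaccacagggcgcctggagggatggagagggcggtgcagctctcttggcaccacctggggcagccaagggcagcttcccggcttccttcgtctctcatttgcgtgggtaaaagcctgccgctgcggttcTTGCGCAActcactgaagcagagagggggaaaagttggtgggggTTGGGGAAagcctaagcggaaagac
Ptges: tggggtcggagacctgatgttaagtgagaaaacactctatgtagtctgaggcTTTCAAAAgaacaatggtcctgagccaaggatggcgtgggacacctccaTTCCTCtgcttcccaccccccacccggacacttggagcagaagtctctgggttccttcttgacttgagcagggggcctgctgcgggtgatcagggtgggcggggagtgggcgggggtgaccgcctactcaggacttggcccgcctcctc
Ltc4s: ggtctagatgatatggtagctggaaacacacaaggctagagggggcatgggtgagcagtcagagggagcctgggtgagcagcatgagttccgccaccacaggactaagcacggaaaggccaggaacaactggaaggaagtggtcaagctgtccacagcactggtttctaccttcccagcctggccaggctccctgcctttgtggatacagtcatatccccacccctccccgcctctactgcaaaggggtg

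Windows were found for 9 of the 10 genes, Ptgs1 included and Alox5ap not, and were searched on both strands for 6 motifs. The Ptgs2 window held C/EBP matches 69 to 62 and 25 to 18 bases before the start and a PU.1 core 247 to 242 bases before it. In the Ptges window a C/EBP match lay 198 to 191 bases and a PU.1 core 149 to 144 bases before the start. The Ltc4s window held none of the 6 motifs. Among 32841 windows of the same length, 36.9% held the C/EBP motif and 23.3% the PU.1 core, so that such matches are common. The other motifs were NF-kB (in 7.25% of windows), the CRE motif TGACG (17.8%), the E-box CACGTG (6.02%) and AP-1, TGANTCA (6.75%). Of these 4, only AP-1 matched in any member's window, that of Tbxas1. A match here is a run of letters, not a measured binding site, and the absence of one says nothing about the factor.

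Values are log2 expression as deposited, given for the arrays in the order of their replicate numbers, and each difference is followed by ± its standard error in limma, with 3 arrays per group. A gene was called at a Benjamini-Hochberg adjusted p under 0.05 over all 19938 genes. The medians of the 12 arrays lay between 4.41 and 4.54, which serves as a mark of low signal, since no call of signal against background was made. Arrays of a group correlated at 0.993 to 0.996 over all genes. Marker genes went with the labels. Of 8 dendritic cell markers 7 were higher in GM-DC, and all 7 measured macrophage markers were lower there, with and without LPS. LPS raised 4 of the 8 dendritic cell markers in GM-MF, Ccr7, Cd83 and Fscn1 among them, and 1 in GM-DC. Over all genes 17.4% and 9.72% were called for LPS in GM-MF and GM-DC. Cd83 averaged 10.82 in GM-DC both with and without LPS, against 7.54 and 6.49 in GM-MF. Ccr7 averaged 12.05 in unstimulated GM-DC, and 9.45 and 6.99 in GM-MF with and without LPS. How mature the unstimulated GM-DC already were was not tested. The averaged macrophage markers, Cd68, Cd14 and Csf1r the highest among them, read 6.03 to 6.40 on GM-DC arrays and 10.0 to 10.4 on GM-MF arrays. All 7 lay above the array median on every GM-DC array with LPS. Of 10 neutrophil markers, S100a8, S100a9 and Ngp the highest, 1 was higher and 6 lower in GM-DC with LPS. Without it 1 was higher and 2 lower. Over all genes 36.3% were called with LPS and 34.2% without it. In RNA of a whole population, fewer cells that express a gene and less RNA per cell cannot be told apart.

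GM-DC and GM-MF were compared first in the unstimulated state. GM-DC had lower levels of Pla2g4a, Ptgs2, Ptges and Tbxas1, and a higher level of Ltc4s. Of the 9 genes, 1 was higher and 7 were lower in GM-DC, and Alox5 was not called. Over all genes 34.2% were called, 18.0% higher and 16.2% lower. Of the called genes 52.6% were higher as deposited, 45.5% after cyclic loess scaling and 47.5% with arrays centred on their medians. The median difference of the 9 genes was -1.98, against -0.01 over all genes. For all 9 genes the values of the cell types did not overlap, which held for 44.4% of all genes.

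Pla2g4a, the phospholipase that starts the pathway, read 4.55, 4.71 and 4.65 in unstimulated GM-DC, against 8.29, 8.09 and 8.24 in unstimulated GM-MF. The GM-DC values lay close to the array medians and the groups were far apart. The difference was -3.57 ± 0.16 (11.9-fold lower in GM-DC, adjusted p = 9.39e-11), a ratio whose lower signal was not shown to lie above background. Ptgs2, the inducible cyclooxygenase, read 5.40, 5.48 and 6.87 in GM-DC, against 8.23, 8.97 and 8.30 in GM-MF. It was 5.99-fold lower in GM-DC (-2.58 ± 0.31, adjusted p = 6.2e-06), and the third GM-DC array, at 6.87, read above the other two.

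Of the terminal prostanoid synthases, Tbxas1 had the largest difference. It read 4.72, 5.25 and 4.30 in GM-DC, against 8.39, 8.40 and 8.50 in GM-MF, a difference of -3.67 ± 0.18 (adjusted p = 3.93e-10). Ptges read 4.38, 4.37 and 3.98 in GM-DC, at or below the array medians, against 5.94, 6.40 and 6.33 in GM-MF. Its difference was -1.98 ± 0.15 (adjusted p = 5.07e-08). Hpgds, which makes prostaglandin D2, was low in all cells: it read 3.69, 3.75 and 3.65 in GM-DC and 4.31, 3.90 and 4.57 in GM-MF, above its array's median on 1 of the 12 arrays. The difference of -0.56 ± 0.14 (adjusted p = 0.00524) is therefore one between low signals.

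In the leukotriene branch the genes went in both directions. Alox5, the 5-lipoxygenase itself, read 6.10, 6.13 and 5.81 in GM-DC and 6.36, 6.24 and 6.54 in GM-MF. These values did not overlap, but the difference of -0.37 ± 0.16 (95% interval -0.71 to -0.02) had an adjusted p of 0.0966 and was not called. Alox5ap was 4.76-fold lower, with 9.15, 9.27 and 8.90 in GM-DC against 11.42, 11.27 and 11.38 in GM-MF (-2.25 ± 0.15, adjusted p = 7.45e-09). Both cell types thus held Alox5ap signal well above the array medians.

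The enzymes that use leukotriene A4 differed in opposite directions. Ltc4s read 9.26, 9.23 and 8.86 in GM-DC, against 6.63, 6.25 and 7.01 in GM-MF. It was 5.59-fold higher in GM-DC (2.48 ± 0.19, adjusted p = 5.95e-08). Lta4h read 6.13, 6.02 and 5.31 in GM-DC, against 6.99, 6.58 and 6.92 in GM-MF, and was 2.02-fold lower (-1.01 ± 0.19, adjusted p = 0.000447). Mast cells, basophils and eosinophils also express Ltc4s. Among their defining genes, Cpa3, Fcer1a, Ms4a2 and Epx read 2.26 to 3.77 on all 12 arrays, under the array medians. Of the 11 mast cell and basophil genes, 7 lay below the array median and 3 above it (Kit, Gata2 and Prss34) on every unstimulated GM-DC array. The averaged mast cell and basophil markers read 3.72 to 3.97 in unstimulated GM-DC and 3.57 to 3.70 in unstimulated GM-MF. Kit, which progenitors share, was the 1 of these 11 genes that was called, higher in GM-DC, beside 34.2% of all genes called. The eosinophil markers averaged 3.51 to 3.88 in GM-DC and 4.24 to 4.47 in GM-MF. With Prg2 higher and Siglecf and Ear6 lower in GM-DC, 3 of the 6 were called, beside 34.2% of all genes. On every unstimulated GM-DC array 4 of these 6 lay below the array median. The part of these cells in the Ltc4s difference was not tested.

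Platelets and megakaryocytes are rich in thromboxane synthase. Pf4, one of their genes, was also lower in GM-DC (-5.18 ± 0.26, adjusted p = 3.59e-10), as were Ppbp and Treml1, 3 of the 6 measured genes of that list. Over all genes 34.2% were called. The other 3, Itga2b, Gp9 and Gp5, were not called, and their averages were higher in GM-DC. They averaged 4.70, 4.02 and 4.83 in unstimulated GM-DC and 4.46, 3.86 and 4.67 in unstimulated GM-MF. The list averaged 5.28 to 5.77 in unstimulated GM-DC and 6.38 to 6.56 in unstimulated GM-MF. On arrays with LPS it averaged 5.17 to 5.61 in GM-DC and 6.11 to 6.33 in GM-MF, and only Pf4 of the 6 was called. The part of these cells in the Tbxas1 difference was not tested.

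**Figure D1:**
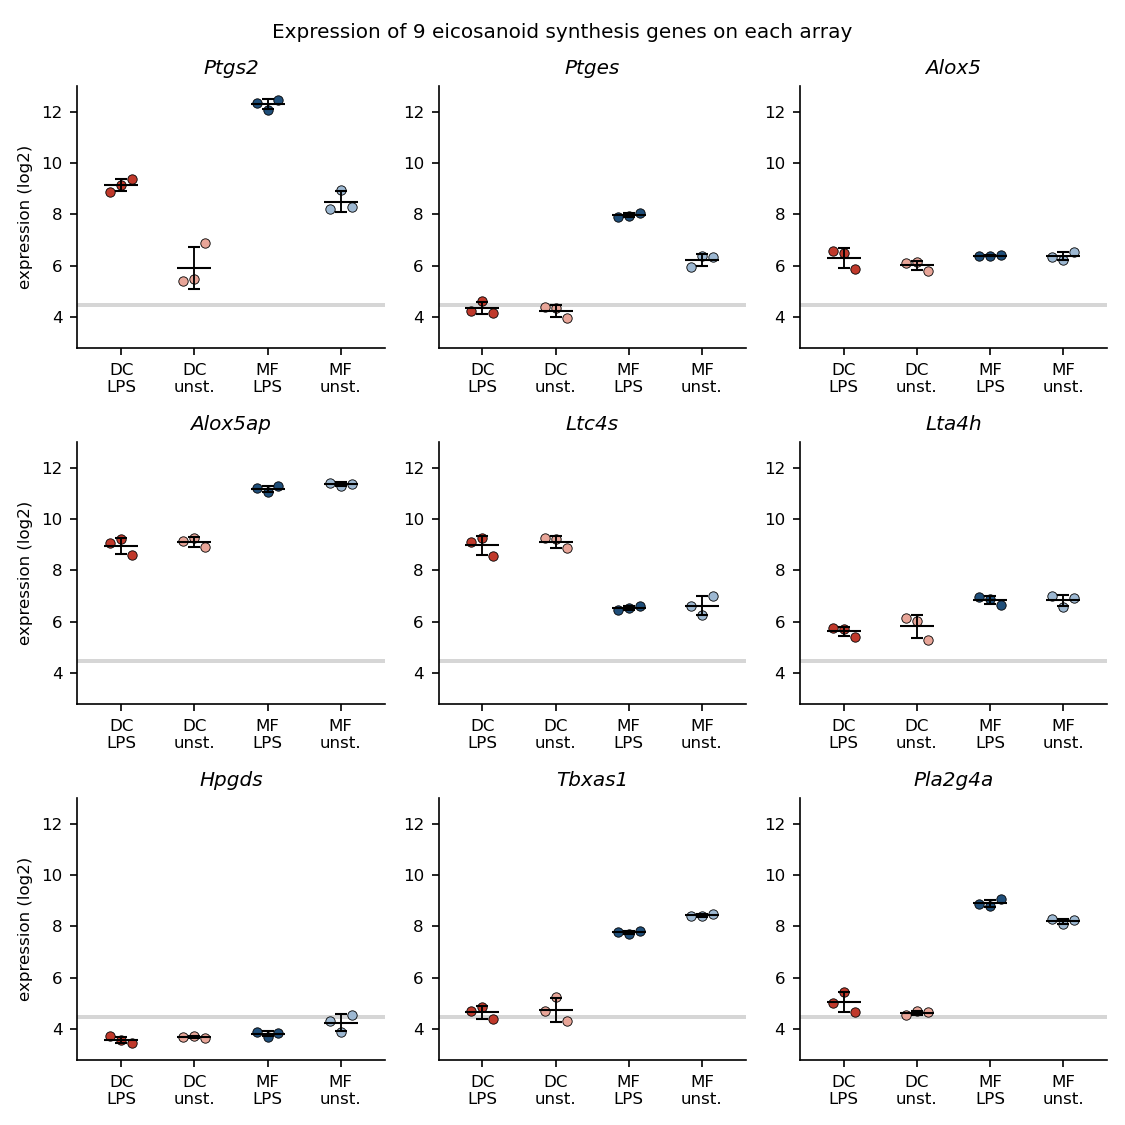
Log2 expression of the 9 measured genes on each of the 12 arrays, with 1 panel per gene; points are arrays, bars the mean and SD of 3 arrays, and the gray band spans the 12 array medians (4.41 to 4.54). Ltc4s is the 1 gene with all GM-DC arrays above all GM-MF arrays, while Tbxas1 and Pla2g4a lie near the gray band in GM-DC and at 7.70 or above in GM-MF.

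After LPS the cell types again differed, and the gap in Ptges was wider. Of the 9 genes, 1 was higher and 6 lower in GM-DC, with Alox5 and Hpgds not called. Over all genes 36.3% were called, 20.9% higher and 15.4% lower. Of the called genes 57.6% were higher as deposited and 47.2% after cyclic loess scaling. Values did not overlap for 7 of the 9, and for 44.9% of all genes. The median difference of the 9 was -2.22, against 0.00 over all genes.

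With LPS, Pla2g4a read 5.01, 5.46 and 4.67 in GM-DC, against 8.87, 8.80 and 9.06 in GM-MF, a 14.5-fold lower signal (-3.86 ± 0.16, adjusted p = 4.41e-11). Ptgs2 read 8.89, 9.15 and 9.38 in GM-DC, against 12.33, 12.08 and 12.46 in GM-MF, and was 8.87-fold lower (-3.15 ± 0.31, adjusted p = 7.04e-07). Ptges read 4.26, 4.62 and 4.16 in GM-DC, against 7.91, 7.94 and 8.06 in GM-MF. With GM-DC again near the array medians, the Ptges difference reached -3.62 ± 0.15 (adjusted p = 6.42e-11). Tbxas1 remained lower in GM-DC, with 4.71, 4.88 and 4.39 against 7.79, 7.70 and 7.82 in GM-MF (-3.11 ± 0.18, adjusted p = 2.69e-09).

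With LPS, Ltc4s was again higher in GM-DC, and Alox5ap and Lta4h lower. Ltc4s read 9.11, 9.26 and 8.57 in GM-DC, against 6.47, 6.55 and 6.62 in GM-MF (2.43 ± 0.19, adjusted p = 7.32e-08). Alox5ap read 9.07, 9.21 and 8.60 in GM-DC, against 11.19, 11.05 and 11.29 in GM-MF (-2.22 ± 0.15, adjusted p = 8.64e-09). Neither gene's groups overlapped. Lta4h read 5.74, 5.72 and 5.42 in GM-DC, against 6.97, 6.87 and 6.67 in GM-MF (-1.21 ± 0.19, adjusted p = 8.35e-05). Alox5 overlapped between the cell types, with 6.58, 6.48 and 5.86 in GM-DC and 6.40, 6.37 and 6.42 in GM-MF (-0.08 ± 0.16, 95% interval -0.43 to 0.26, adjusted p = 0.762). Hpgds stayed under the array medians, at 3.72, 3.58 and 3.48 in GM-DC and 3.90, 3.70 and 3.87 in GM-MF (-0.23 ± 0.14, adjusted p = 0.254).

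**Figure D2:**
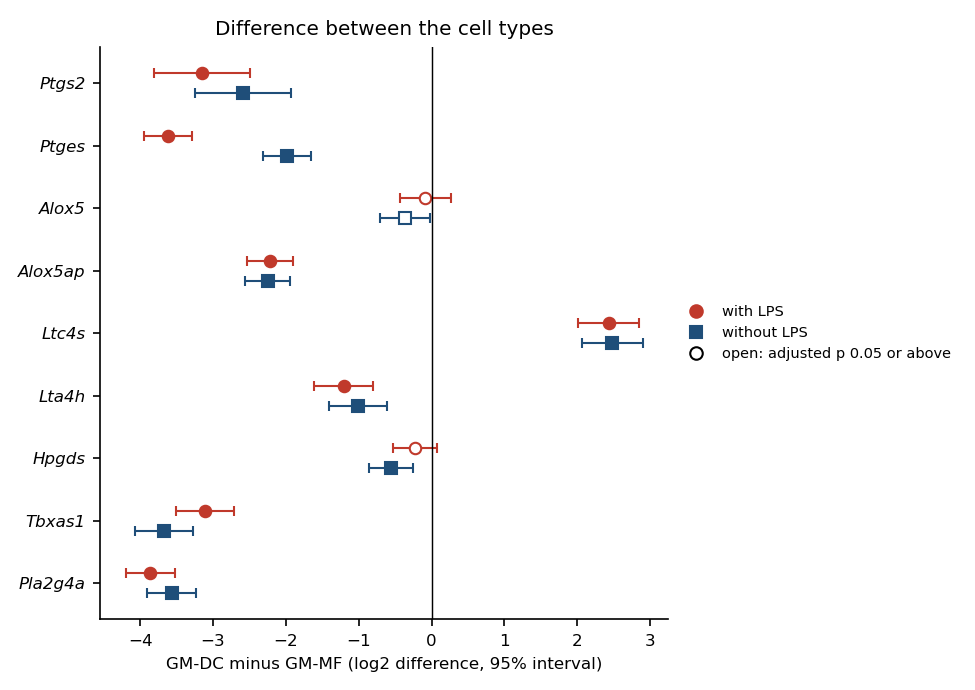
Difference between GM-DC and GM-MF in log2 units (x axis, GM-DC minus GM-MF) for the 9 genes, with LPS (circles) and without (squares); bars are 95% intervals of the limma fit and open symbols mark an adjusted p of 0.05 or above. Ltc4s is the 1 gene to the right of 0, at 2.43 with LPS and 2.48 without, and the Ptges difference is -3.62 with LPS and -1.98 without.

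The response to LPS was then taken within each cell type. In GM-DC, Ptgs2 rose 9.34-fold and was the 1 gene of the 9 that was called (3.22 ± 0.31, adjusted p = 5.73e-06). Its values were 8.89, 9.15 and 9.38 with LPS and 5.40, 5.48 and 6.87 without, and these did not overlap. Over all genes 9.72% were called, 5.23% higher and 4.49% lower, and 24.3% had groups that did not overlap, against 1 of the 9 genes here. The median difference of the 9 was -0.10, and that of all genes -0.01.

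Ptges did not pass the test in GM-DC, at 4.26, 4.62 and 4.16 with LPS and 4.38, 4.37 and 3.98 without (0.11 ± 0.15, 95% interval -0.22 to 0.43, adjusted p = 0.817). The values overlapped and lay at the level of the array medians. Pla2g4a differed by 0.41 ± 0.16 (adjusted p = 0.138) and Alox5 by 0.30 ± 0.16 (adjusted p = 0.357). Without the third GM-DC array with LPS these differences were 0.60 for Pla2g4a and 0.52 for Alox5, both called (adjusted p = 0.0127 and 0.0153), which makes 3 called genes of 9. That array had the lowest value of its group for 8 of the 9 genes, and for 39.7% of all genes, but the highest for Ptgs2. The third unstimulated GM-DC array had the lowest value for 7 of the 9 genes, and for 36.5% of all genes, and again the highest for Ptgs2. Among genes whose mean lay above the median of all values, these shares were 49.6% with LPS and 40.7% without it. With both of these arrays left out, the count was also 3, with 0.60 for Pla2g4a (adjusted p = 0.0304) and 0.42 for Alox5 (adjusted p = 0.0482). The other 5 genes differed by -0.19 to -0.10, none called.

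In GM-MF, LPS raised Ptgs2, Ptges and Pla2g4a, 3 genes on the way from membrane lipid to prostaglandin E2, while Tbxas1 and Hpgds fell. That is 5 called genes of 9, against 17.4% of all genes, of which 6.54% were higher and 10.8% lower. Of all called genes 37.7% were higher as deposited and 49.4% after cyclic loess scaling. The same 5 genes had groups that did not overlap, as had 31.5% of all genes. The median difference of the 9 was 0.01, against -0.02 over all genes.

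Ptgs2 rose 13.8-fold in GM-MF, with 12.33, 12.08 and 12.46 with LPS against 8.23, 8.97 and 8.30 without (3.79 ± 0.31, adjusted p = 8e-07). Ptges rose 3.36-fold, with 7.91, 7.94 and 8.06 with LPS against 5.94, 6.40 and 6.33 without (1.75 ± 0.15, adjusted p = 1.51e-06). Pla2g4a rose 1.63-fold, with 8.87, 8.80 and 9.06 against 8.29, 8.09 and 8.24 (0.70 ± 0.16, adjusted p = 0.0051). All 3 had every LPS array above every unstimulated one.

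Tbxas1 fell in GM-MF, with 7.79, 7.70 and 7.82 with LPS against 8.39, 8.40 and 8.50 without (-0.66 ± 0.18, adjusted p = 0.021). Hpgds fell among low signals, with 3.90, 3.70 and 3.87 against 4.31, 3.90 and 4.57 (-0.43 ± 0.14, adjusted p = 0.0462). Its highest value with LPS, 3.90, lay just under the lowest without. Both calls were weak. The count was 3 of 9 without GM-MF replicate 1, 2 or 3 with LPS or replicate 1 or 3 unstimulated, and both genes then missed the threshold, with adjusted p from 0.0501 to 0.0709 for Tbxas1 and from 0.0717 to 0.227 for Hpgds. The leukotriene genes were not called: Alox5 differed by 0.01 ± 0.16, Alox5ap by -0.18 ± 0.15, Ltc4s by -0.09 ± 0.19 and Lta4h by 0.01 ± 0.19. Their 95% intervals reached from -0.50 to 0.40.

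**Figure D3:**
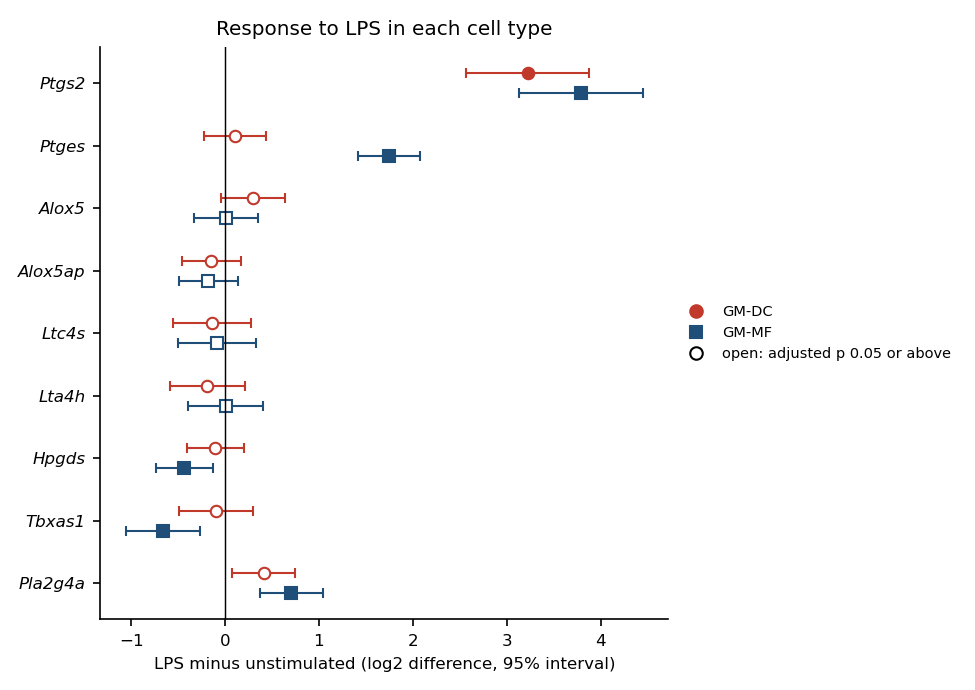
Difference between LPS and unstimulated arrays in log2 units (x axis) for the 9 genes in GM-DC (circles) and GM-MF (squares); bars are 95% intervals of the limma fit and open symbols mark an adjusted p of 0.05 or above. Ptgs2 lies far to the right in both cell types (3.22 and 3.79), Ptges in GM-MF alone (1.75, against 0.11 in GM-DC), and the 4 leukotriene genes lie near 0.

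Whether a response differed between the cell types was tested by the interaction, the LPS difference in GM-DC minus that in GM-MF. Ptges was the 1 gene of 9 that was called (-1.64 ± 0.22, adjusted p = 0.000187). Over all genes 7.59% were called, 4.53% positive and 3.06% negative. For Ptgs2 the difference of responses was -0.57 ± 0.44 (95% interval -1.50 to 0.37, adjusted p = 0.594), so that responses of unlike size fit within the interval. For Pla2g4a it was -0.29 ± 0.22 (95% interval -0.77 to 0.18, adjusted p = 0.59). For Tbxas1 it was 0.57 ± 0.26 (adjusted p = 0.263). With the replicate number as a block within each cell type, Tbxas1 was called too (adjusted p = 0.0412), as it was without the second unstimulated GM-DC array (0.81, adjusted p = 0.0299). The other 5 genes gave -0.20 to 0.33, none called.

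Over the 4 groups, Ptgs2 averaged 9.14 ± 0.25 and 5.92 ± 0.83 in GM-DC with and without LPS, and 12.3 ± 0.19 and 8.50 ± 0.41 in GM-MF with and without LPS (SD, n = 3 each). The order from the top was GM-MF with LPS, GM-DC with LPS, unstimulated GM-MF and unstimulated GM-DC, and the values of the middle groups overlapped. Ptges averaged 4.35 ± 0.24 and 4.24 ± 0.23 in GM-DC with and without LPS, and 7.97 ± 0.08 and 6.22 ± 0.25 in GM-MF. GM-MF with LPS was highest, unstimulated GM-MF next, and the GM-DC groups overlapped. Pla2g4a had the same order, with 5.05 ± 0.40 and 4.64 ± 0.08 in GM-DC with and without LPS, 8.91 ± 0.14 and 8.21 ± 0.10 in GM-MF, and overlap in GM-DC. Tbxas1 averaged 4.66 ± 0.25 and 4.76 ± 0.47 in GM-DC with and without LPS, and 7.77 ± 0.06 and 8.43 ± 0.06 in GM-MF. Here unstimulated GM-MF was highest and GM-MF with LPS next, with overlap in GM-DC. Ltc4s averaged 8.98 ± 0.36 and 9.11 ± 0.22 in GM-DC with and without LPS, and 6.55 ± 0.07 and 6.63 ± 0.38 in GM-MF, with overlap within each cell type. Alox5ap averaged 8.96 ± 0.32 and 9.11 ± 0.19 in GM-DC, and 11.2 ± 0.12 and 11.4 ± 0.08 in GM-MF, where 1 unstimulated value lay below the highest with LPS. Lta4h averaged 5.63 ± 0.18 and 5.82 ± 0.45 in GM-DC, and 6.84 ± 0.15 and 6.83 ± 0.22 in GM-MF, again overlapping within each cell type. Alox5 averaged 6.31 ± 0.39 and 6.01 ± 0.18 in GM-DC, and 6.39 ± 0.03 and 6.38 ± 0.15 in GM-MF, with overlap between all neighbours in the order of the averages. Hpgds averaged 3.59 ± 0.12 and 3.70 ± 0.05 in GM-DC, and 3.82 ± 0.11 and 4.26 ± 0.34 in GM-MF, all low.

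Over the 12 arrays Ltc4s was correlated negatively with each of the other 8 genes, from r = -0.35 with Alox5 to -0.96 with Pla2g4a. Alox5ap and Tbxas1 were the closest pair (r = 0.993). The genes outside the set with the most similar profile were Plek for Ptgs2 (r = 0.987), Lap3 for Ptges (0.991), Dpep2 for Alox5ap (0.999), Pam16 for Ltc4s (0.990), Rgs14 for Pla2g4a (0.998), Camk2d for Tbxas1 (0.996), Ctbs for Lta4h (0.979), Pinx1 for Alox5 (0.972) and Ccnh for Hpgds (0.935). Dpep2, which cleaves leukotriene D4 to E4, is the 1 of these 9 that also belongs to the pathway lists. These correlations run over arrays that fall into separate cell types and carry no test.

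The rest of the pathway was taken from lists of phospholipases, lipid handling enzymes, other synthases, breakdown and transport, other leukotriene enzymes and the receptors. Most called differences in the other leukotriene enzymes were toward lower levels in GM-DC. Of 14 measured lipoxygenase and leukotriene enzymes, 1 was higher and 6 lower in GM-DC with LPS, where 36.3% of all genes were called. In unstimulated GM-DC 0 were higher and 5 lower, where 34.2% of all genes were called. Mgst2, a microsomal enzyme that can also make leukotriene C4, read 6.02, 5.81 and 5.41 in unstimulated GM-DC, against 9.83, 9.74 and 9.83 in unstimulated GM-MF (-4.05 ± 0.15, adjusted p = 1.7e-11), the reverse of Ltc4s. Mgst1, of the same family, differed by -4.20 ± 0.27 (adjusted p = 7.62e-09) and Dpep2 by -2.90 ± 0.20 (adjusted p = 1.84e-08). With LPS these 3 differed by -4.09, -4.48 and -2.85. With LPS limma called 0 of the 14 in GM-DC, 4 having an unadjusted p under 0.05, beside 9.72% of all genes called. Cotl1, which binds 5-lipoxygenase, differed there by -0.38 ± 0.12 (adjusted p = 0.0709), called in 7 of 24 alternatives. In GM-MF, LPS raised Alox12, a 12-lipoxygenase (0.86 ± 0.12, adjusted p = 8.51e-05), and lowered Cotl1 (-0.47 ± 0.12, adjusted p = 0.0139), a call that was lost in 3 of 24 alternatives. In the test of the difference of responses limma called 0 of the 14, 1 having an unadjusted p under 0.05, beside 7.59% of all genes called. Cotl1 gave 0.09 ± 0.17 in that test (adjusted p = 0.874).

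Receptors for prostaglandin E2 differed in opposite directions. Ptger4 read 9.97, 9.95 and 10.31 in unstimulated GM-DC, against 8.23, 7.98 and 8.24 in unstimulated GM-MF, and was higher in GM-DC (1.93 ± 0.12, adjusted p = 5.37e-09). Ptger2, which like Ptger4 raises cyclic AMP, read 3.62, 3.89 and 4.52 in GM-DC, against 7.21, 6.75 and 6.97 in GM-MF, and was lower (-2.97 ± 0.20, adjusted p = 1.15e-08), with 1 GM-DC signal of 3 above its array's median and none shown to lie above background. With LPS the differences were 3.56 ± 0.12 for Ptger4 and -2.04 ± 0.20 for Ptger2. Ptgir, the prostacyclin receptor, was also lower in GM-DC, with differences of -1.41 with LPS and -2.30 without it.

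The prostanoid receptors fell or were not called with LPS. In GM-DC, Ptger1 fell by 0.53 (adjusted p = 0.0119), the 1 of 9 that was called, beside 9.72% of all genes. Without the first unstimulated GM-DC array that call was lost (adjusted p = 0.0666). In GM-MF, 4 of 9 fell, beside 17.4% of all genes called. Ptger4 fell the most, with 6.48, 6.72 and 6.61 with LPS against 8.23, 7.98 and 8.24 without (-1.55 ± 0.12, adjusted p = 6.24e-07). Ptger2 and Ptger1 each fell by 0.99 there. The responses of Ptger4 differed by 1.63 ± 0.17 (adjusted p = 2.75e-05), the 1 called interaction among the 9, beside 7.59% of all genes. In all, 3 of 9 were higher and 2 lower in GM-DC with LPS, and 2 higher and 3 lower in unstimulated GM-DC. Over all genes 36.3% were called with LPS and 34.2% without it.

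Of 4 measured leukotriene receptors 3 were lower in GM-DC in both states, where 36.3% of all genes were called with LPS and 34.2% without it. Ltb4r1, the high-affinity leukotriene B4 receptor, differed by -2.70 ± 0.16 with LPS and by -2.58 ± 0.16 without it. In the same order, Cysltr1 differed by -1.97 ± 0.27 and -2.79 ± 0.27, and Cysltr2 by -1.65 ± 0.16 and -1.24 ± 0.16. Cysltr1 lay above the array median on 2 of 3 GM-DC arrays in each state. It read 4.79, 5.16 and 3.86 there with LPS and 5.04, 4.79 and 4.11 without. Cysltr2 rose with LPS in both cell types, by 0.91 ± 0.16 in GM-DC (adjusted p = 0.00122) and by 1.32 ± 0.16 in GM-MF (adjusted p = 2.68e-05). Its values in GM-DC, 4.31, 4.26 and 3.91 with LPS and 3.46, 3.06 and 3.21 without, lay under the array medians. Cysltr1 fell in GM-MF (-0.86 ± 0.27, adjusted p = 0.0406), a call lost in 8 of 24 alternatives. For the interaction limma called 0 of the 4, with 0 at an unadjusted p under 0.05, beside 7.59% of all genes called. Ltb4r1 gave -0.12 ± 0.22 in that test (adjusted p = 0.874).

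**Figure D4:**
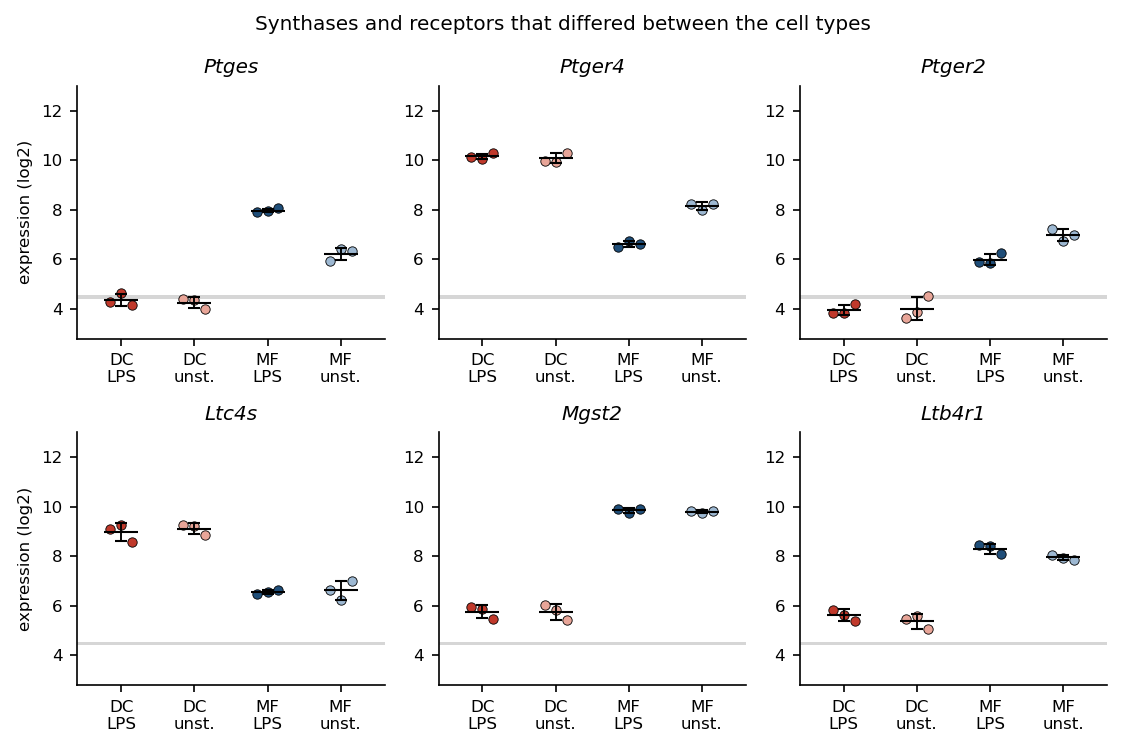
Log2 expression on each of the 12 arrays of Ptges with the prostaglandin E2 receptors Ptger4 and Ptger2 (top) and of Ltc4s with Mgst2 and the leukotriene B4 receptor Ltb4r1 (bottom); points are arrays, bars the mean and SD of 3 arrays, and the gray band spans the 12 array medians. Ptger4 and Ltc4s are higher in GM-DC, and the other 4 genes are lower there.

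In both states 4 of the 7 other prostanoid synthases measured were lower in GM-DC and 0 higher. Over all genes 36.3% were called with LPS and 34.2% without it. The 4 were Ptges2, a second prostaglandin E synthase, the carbonyl reductases Cbr1 and Cbr3, and Prxl2b, a prostaglandin F synthase. Ptges3, also a prostaglandin E synthase, averaged 10.84 in unstimulated GM-DC and 10.75 in unstimulated GM-MF. It was not called there (0.09 ± 0.11, adjusted p = 0.627). Cbr3 differed by -3.02 ± 0.12 and Prxl2b by -2.34 ± 0.10 in the unstimulated state. Cbr3 fell with LPS in GM-DC (-0.43 ± 0.12, adjusted p = 0.0333), a call lost in 6 of 24 alternatives, and in GM-MF (-1.05 ± 0.12, adjusted p = 1.84e-05). Among 6 genes of breakdown and transport, Ptgr1, which inactivates leukotriene B4 and prostaglandins, was lower in GM-DC, with differences of -4.02 ± 0.17 with LPS and -4.29 ± 0.17 without it. The exporters Abcc1 and Abcc4 were lower as well, with differences of -0.39 and -0.69 with LPS and of -1.03 and -1.04 without it. That made 3 of 6 lower and 0 higher in both states, where 36.3% of all genes were called with LPS and 34.2% without it. The Abcc1 call with LPS was lost without the first GM-MF array with LPS (adjusted p = 0.0504). In GM-DC, LPS raised Abcc1 (0.41 ± 0.11, adjusted p = 0.0234), a call lost in 4 of 24 alternatives. In GM-MF it lowered Ptgr1 (-0.82 ± 0.17, adjusted p = 0.00302) and Ptgr2 (-0.49 ± 0.14, adjusted p = 0.0267), the call of Ptgr2 lost in 5 of 24.

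Of the 18 other phospholipases A2 measured, 3 were higher and 2 lower in GM-DC with LPS, where 36.3% of all genes were called. Pla2g15, Pla2g4f and Pla2g7 differed there by 1.19 ± 0.22, 0.90 ± 0.17 and -1.92 ± 0.14. In unstimulated GM-DC 3 were higher and 1 lower, where 34.2% of all genes were called. Pla2g4f and Pla2g3 were among the higher, by 0.70 ± 0.17 and 0.58 ± 0.15. Pla2g4f lay above the array median on 1 of 3 GM-DC arrays in each state and on 0 of 3 GM-MF arrays. Pla2g7, which breaks down platelet-activating factor, read 10.72, 10.66 and 10.26 in unstimulated GM-DC, against 11.88, 11.83 and 11.96 in GM-MF (-1.34 ± 0.14, adjusted p = 2.11e-06). It fell with LPS in GM-DC (-0.83 ± 0.14, adjusted p = 0.0015). In GM-DC, LPS raised 1 of the 18 (Pla2g15, a lysosomal enzyme) and lowered 2, Pla2g7 and Pla2g6, beside 9.72% of all genes called. The Pla2g6 call (-0.35 ± 0.09, adjusted p = 0.0184) was lost in 7 of 24 alternatives. In GM-MF limma called 0 of the 18 with LPS, 0 having an unadjusted p under 0.05, beside 17.4% of all genes called. Pla2g7 differed there by -0.25 ± 0.14 (adjusted p = 0.316).

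Enzymes that handle arachidonate in membrane lipids differed most in Lpcat2, an acyltransferase that also makes platelet-activating factor. It read 4.96, 4.94 and 5.20 in unstimulated GM-DC, against 9.94, 9.94 and 10.08 in GM-MF (-4.96 ± 0.12, adjusted p = 3.77e-13). LPS raised it in GM-DC (1.23 ± 0.12, adjusted p = 7.09e-06). Mgll, which breaks down the endocannabinoid 2-arachidonoylglycerol into arachidonate and glycerol, was lower in unstimulated GM-DC (-2.37 ± 0.26, adjusted p = 2.15e-06) and moved in opposite directions with LPS. It rose in GM-DC (1.41 ± 0.26, adjusted p = 0.00199) and fell in GM-MF (-0.88 ± 0.26, adjusted p = 0.0267), the call in GM-MF lost in 5 of 24 alternatives. The difference of responses was 2.29 ± 0.36 (adjusted p = 0.000904). Fads1, a desaturase on the way to arachidonate, fell by 1.29 in GM-DC and by 1.31 in GM-MF. Fads2 fell with LPS in GM-MF (-0.85 ± 0.18, adjusted p = 0.00357). Between the cell types with LPS, Lpcat1 (2.36 ± 0.13, adjusted p = 8.34e-10) and Fads2 (1.68 ± 0.18, adjusted p = 1.88e-06) were higher in GM-DC. Lpcat2 was lower there (-3.80 ± 0.12). In the unstimulated state Lpcat3 was lower in GM-DC (-1.57 ± 0.14, adjusted p = 3.48e-07). Of the 15 measured genes of this list, 4 were higher and 4 lower in GM-DC with LPS, and 4 higher and 8 lower in unstimulated GM-DC. Over all genes 36.3% were called with LPS and 34.2% without it. LPS raised 4 and lowered 2 in GM-DC, beside 9.72% of all genes called. In GM-MF it raised 0 and lowered 4, beside 17.4% of all genes called.

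**Figure D5:**
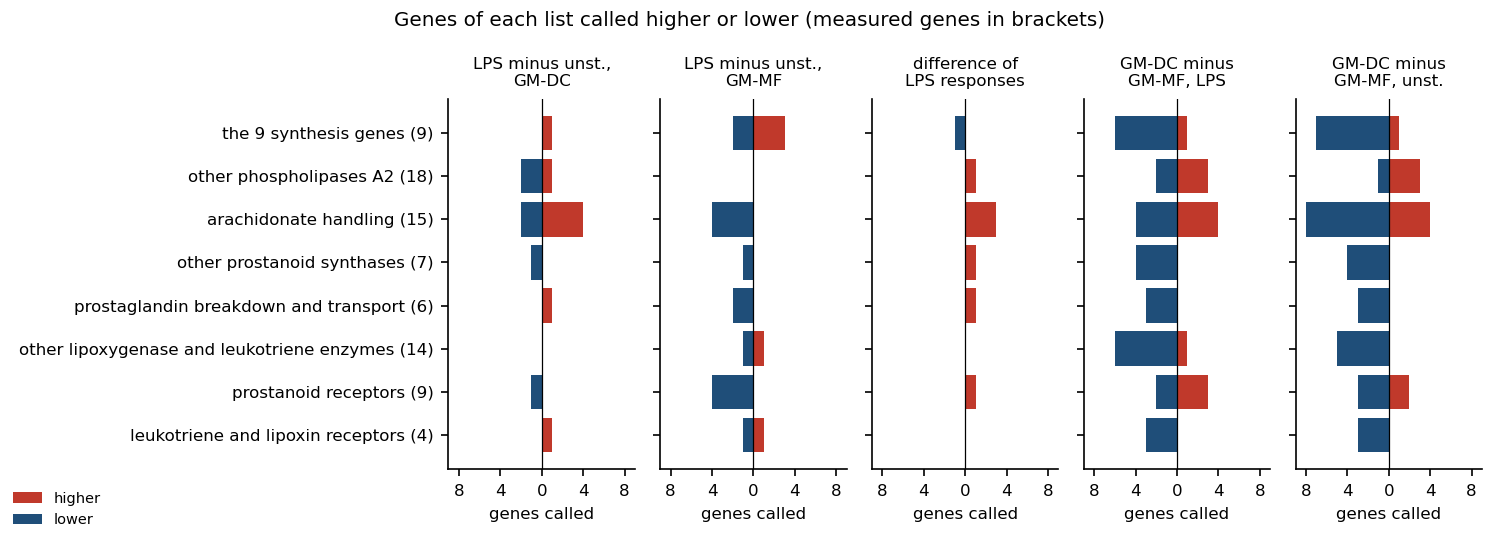
Number of genes called higher (red, right) or lower (blue, left) in each comparison for the 9 synthesis genes and the 7 pathway lists, with the number of measured genes in brackets; the x axis counts genes called at an adjusted p under 0.05. In unstimulated cells the synthesis genes, other prostanoid synthases, breakdown and transport genes, other leukotriene enzymes and leukotriene receptors were mostly or only called lower in GM-DC, with 1 gene of these higher, Ltc4s. The remaining lists went both ways in unstimulated cells. Other phospholipases A2 had 3 higher and 1 lower, arachidonate handling 4 higher and 8 lower, and prostanoid receptors 2 higher and 3 lower. Over all genes 34.2% were called in that comparison.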

How the data were processed

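RNA of 12 mouse marrow culture samples was measured on Affymetrix Mouse Gene 1.0 arrays. The authors deposited log2 values, for which the submitters' processing notes name RMA and R 3.0.2, and the RMA settings are not given in the sources used here. The log base was taken as 2 from the range of values (1.18 to 13.7). No background call was made, and the number of arrays limits the precision. No rescaling or filter was applied to the deposited values.

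Of 35556 probe sets, 21789 carried 1 gene symbol in the platform annotation, 1621 several and 12146 none. The probe set with the highest mean over 12 arrays was kept for each of 19938 genes. Group means were fitted to all 12 arrays with limma 3.58.1 in R 4.3.3 (lmFit, contrasts.fit, eBayes without trend, two-sided, 8 residual degrees of freedom), giving 5 comparisons, each adjusted by Benjamini-Hochberg over all genes. Labels name no batch. The script was tested on simulated data.

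The members and lists were chosen with earlier results of these data known. All members are named. Of each pathway list, up to 3 called genes with the largest difference per comparison and groups that did not overlap are named (overlap not asked for the interaction), or, with no call, the 1 of highest mean. Of each marker list, up to 3 genes with the highest mean are named, and for each member the genes of most similar profile. Cpa3, Fcer1a, Ms4a2, Gata2, Epx, Itga2b, Gp9 and Gp5 fall outside this rule. So do Ptges2 and Ptges3 in unstimulated cells and Pla2g15 for LPS in GM-DC. All of these were chosen after their values were seen. Promoter windows and symbols come from RefSeq (GRCm38.p6).

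Replicate numbers repeat across groups. In deviations from the group means, arrays of the same number correlated at 0.119, 0.136 and 0.363 across the GM-DC states and at 0.257, 0.188 and 0.104 across those of GM-MF. Arrays of different numbers correlated at -0.25 to 0.164 in GM-DC, where only the pair numbered 3 exceeded that range, and at -0.216 to 0.0254 in GM-MF. Between cell types the values of the same number ran from -0.168 to 0.156. Every same-number value within a cell type was over 0.1, a hint of pairing from the data and not from the labels. In GM-DC that hint rests on the pair numbered 3. The main fit held no block, and blocked fits were run as alternatives. Other alternatives were the scaling, filters on low values, the choice of probe set, moderation with a trend, the 6 arrays compared alone, a fold threshold and each array left out in turn. Counts of alternatives in which a call was lost or gained leave out the fold threshold.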

Additional observations from a re-analysis of the deposited data

Results flagged for a closer look

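The response to LPS differed between GM-DC and GM-MF, by the interaction in limma, for 1 of the 9 synthesis genes and 7 genes of the pathway lists. Those lists held 18, 15, 7, 6, 14, 9 and 4 measured genes, and 7.59% of all genes were called. Values are the log2 LPS difference in GM-DC minus that in GM-MF. Ptges gave -1.64 (adjusted p = 0.000187), with responses of 0.11 for GM-DC and 1.75 for GM-MF. It kept its call in all 24 alternatives, the fold threshold included. Ptger4, a prostaglandin E2 receptor, gave 1.63 (adjusted p = 2.75e-05). Mgll gave 2.29 (adjusted p = 0.000904), and its direction was opposite in the cell types. Lpcat2 gave 1.16 (adjusted p = 0.000491) and Lpcat1, another acyltransferase, gave 0.79 (adjusted p = 0.0115). Pla2g15 gave 1.08 (adjusted p = 0.0421), lost in 10 of 23 alternatives, Cbr3 0.63 (adjusted p = 0.0334), lost in 11 of 23, and Abcc1 0.64 (adjusted p = 0.0173), lost in 2 of 23. The counts of 23 leave out the fold threshold, a log2 difference of at least 1, which Cbr3 and Abcc1 did not reach. The cause of these differences was not tested.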

How the results depend on the processing

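The counts of synthesis genes called between the cell types were 7 of 9 with LPS and 8 of 9 without it, and ranged from 7 to 7 and from 8 to 9 when each array was left out in turn. The count for LPS in GM-DC ranged from 1 to 3, reaching 3 without GM-DC LPS replicate 3 and also with the third GM-DC arrays of both states left out. For LPS in GM-MF it ranged from 3 to 5, and for the interaction from 1 to 2, the 2 without GM-DC unstimulated replicate 2. Over all genes the counts ranged from 6593 to 7407 and 6197 to 6940 between the cell types with and without LPS, from 1331 to 2009 and 2717 to 3623 for LPS in GM-DC and GM-MF, and from 1180 to 1748 for the interaction. A further demand for a log2 difference of at least 1 left 2572, 2533, 415, 633 and 649 genes in the 5 comparisons, in the order just given, and 2 of the 5 synthesis genes for LPS in GM-MF. In the blocked fits, the replicate block over all groups gave 7343, 7011, 2049, 3648 and 1652 genes and changed no count of synthesis genes (7, 8, 1, 5 and 1). The replicate block within each cell type gave 2355, 3981 and 1939 genes for the LPS comparisons and the interaction, and 2 synthesis genes for the interaction, with Tbxas1 added. That block and the joint omission of the third GM-DC arrays were chosen after seeing the data.

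Directions reversed only in differences that were not called. Under cyclic loess, Ltc4s for LPS in GM-MF gave 0.00759 (-0.0866 as deposited) and the Alox5ap interaction -0.0192 (0.0315 as deposited). Without the third GM-DC arrays, Alox5 between the cell types with LPS gave 0.14 and the Ltc4s interaction 0.0251. With each array left out in turn, LPS in GM-DC ranged from -0.274 to 0.0317 for Alox5ap, -0.0312 to 0.201 for Ptges, -0.277 to 0.0679 for Ltc4s and -0.32 to 0.15 for Tbxas1. LPS in GM-MF ranged from -0.0576 to 0.0890 for Alox5, -0.277 to 0.103 for Ltc4s and -0.120 to 0.0887 for Lta4h. Alox5 between the cell types with LPS ranged from -0.22 to 0.14. The interaction ranged from -0.0947 to 0.211 for Alox5ap, -0.241 to 0.154 for Ltc4s and -0.283 to 0.00278 for Ltb4r1. The Hpgds call for LPS in GM-MF was lost in 14 of 22 alternatives and the Tbxas1 call in 5 of 24. Alox5 was called lower in unstimulated GM-DC in 3 of 23. The cause was not tested.

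Low signal limits Hpgds, Alox12 and Pla2g4f, Pla2g3 in GM-MF, and Ptges, Tbxas1, Pla2g4a, Ptger2, Cysltr1 and Cysltr2 in GM-DC. Their folds are ratios to a signal not shown to exceed background. With 3 arrays per group and replicates of unstated origin, the intervals cover array-to-array spread alone.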

Other observations

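Hdc and Kit, the latter shared by progenitors, changed with LPS among the 11 mast cell and basophil markers. In GM-MF 2 of the 11 were called, beside 17.4% of all genes, and in GM-DC 1 of the 11, beside 9.72%. Hdc, the histamine-forming enzyme, read 8.06, 7.97 and 8.43 in GM-MF with LPS against 4.43, 5.08 and 4.67 without, and was called higher. Kit read 5.90, 5.85 and 6.66 in GM-DC with LPS against 6.99, 7.24 and 7.77 without, and was called lower. In GM-MF it went the other way, with 5.25, 5.26 and 5.29 with LPS against 4.36, 4.34 and 4.12 without, and was called higher. The difference of responses was called for both genes, 2 of the 11, beside 7.59% of all genes. Prg2 had its highest value, 5.98, on the third unstimulated GM-DC array, the array with the highest unstimulated GM-DC value of Ptgs2. The cause was not tested.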
